A study of Mus musculus with 12 samples.

Results

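Sarcomere, Z-disc and costamere genes encode the contractile lattice of the heart muscle cell and the structures that anchor it. The set held 43 genes, chosen by gene symbol from the 24775 genes of the deposited expression table, and all 43 were found and tested. They were sorted by the structure to which each product belongs: 8 genes of the thick filament and M-band, 10 of the thin filament, 13 of the Z-disc, 4 of the intermediate filament and costamere, 4 chaperones or myosin assembly factors, and 4 ubiquitin ligases. Their RNA was measured by RNA-seq in hearts of C57BL/6 mice that differed in an injected virus and in an operation, with 12 libraries in 4 groups.

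The PRODH TAC group (3 libraries) received AAV9-PRODH, an adeno-associated virus carrying the gene for proline dehydrogenase, the mitochondrial enzyme that opens proline breakdown, and then TAC surgery (transverse aortic constriction), in which a tied-down aortic arch raises the pressure against which the left ventricle pumps. The vector TAC group (3 libraries) received AAV9-Vector, the virus without that gene, and the same operation. The PRODH sham group (3 libraries) received AAV9-PRODH and a sham operation. The vector sham group (3 libraries) received AAV9-Vector and a sham operation, so the animals of every group, controls included, carried a virus and underwent surgery. The operation came 3 weeks after injection and the heart was taken 4 weeks after the operation. The submitters describe the overexpression as cardiac-specific. The sources used here do not give the promoter that drove the transgene, the age and sex of the mice or the part of the heart taken. Nothing in them says whether libraries of a group were separate animals, so p-values measure the spread between libraries, which may be partly technical.

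A sarcomere is the repeating contractile unit of striated muscle. Thick filaments of myosin, centred on the M-band and bound by myosin-binding protein C, pull on thin filaments of actin, along which tropomyosin and the troponin complex switch contraction on and off with calcium. The giant protein titin spans from the Z-disc to the M-band, and the Z-disc, built on alpha-actinin, anchors the thin filaments and holds many LIM-domain adaptor proteins. Desmin filaments tie Z-discs to each other and to the costameres, the membrane attachment sites that pass force to the extracellular matrix. Chaperones fold and repair these proteins, and muscle ubiquitin ligases mark them for removal. Pressure overload is known to change the isoforms of some of these proteins in the rodent ventricle, with skeletal and fetal forms increasing.

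Each library held 10.1 M to 15.2 M reads, and the members took 4.44% to 5.46% of them. Values below are normalized reads, that is, the authors' gene counts divided by a size factor per library. The factor scales whole libraries to each other, and a trend with transcript length that differed between libraries remained, as described below. Values are not comparable between genes of different length. Prodh, the gene carried by the virus, read 964, 1320 and 1021 normalized reads in PRODH TAC libraries, against 245, 172 and 160 in vector TAC libraries, and limma called it higher (log2 difference 2.52 ± 0.24 SE, adjusted p = 0.000174). In PRODH sham libraries it read 965, 497 and 1072, against 334, 292 and 379 in vector sham libraries, with no overlap but an adjusted p of 0.616 by limma. Vector TAC replicate 1 and PRODH sham replicate 2 stood apart: their mesothelial marker sums were 474 and 469 normalized reads, against 89.7 to 277 in the other libraries, and their red blood cell marker sums were 120145 and 138441, against 11237 to 55384. Cardiac myocyte markers, the defining genes of the labelled tissue, were all detected, with sums over 9 genes of 657457 to 733187 in PRODH TAC, 486663 to 662171 in vector TAC, 777798 to 866086 in PRODH sham and 708410 to 795846 in vector sham libraries. In bulk tissue, fewer cells of a type and less RNA per cell cannot be told apart.

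Divided by the length of the longest annotated transcript, so that genes can be compared, mean levels over the 12 libraries were highest for the troponins and for alpha-tropomyosin. Tnnt2 (cardiac troponin T) stood at 62552 normalized reads per kilobase, Tnni3 (cardiac troponin I) at 54546, Tnnc1 (the calcium-binding troponin C) at 39429 and Tpm1 (alpha-tropomyosin) at 35637. Tcap (telethonin, which caps titin at the Z-disc), Cryab (the small heat shock protein alphaB-crystallin) and Myoz2 (calsarcin-1, which binds alpha-actinin and calcineurin) followed at 24996, 17157 and 14601 per kilobase. The lowest were the forms best known from skeletal muscle: Myom3 (myomesin-3) at 6.82, Myoz1 (calsarcin-2) at 3.81 and Neb (nebulin) at 2.75 per kilobase. Ttn was only the 35th of 43 on this scale, at 237 per kilobase, although its mean of 25292 normalized reads was the 7th highest.

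**Figure D1:**
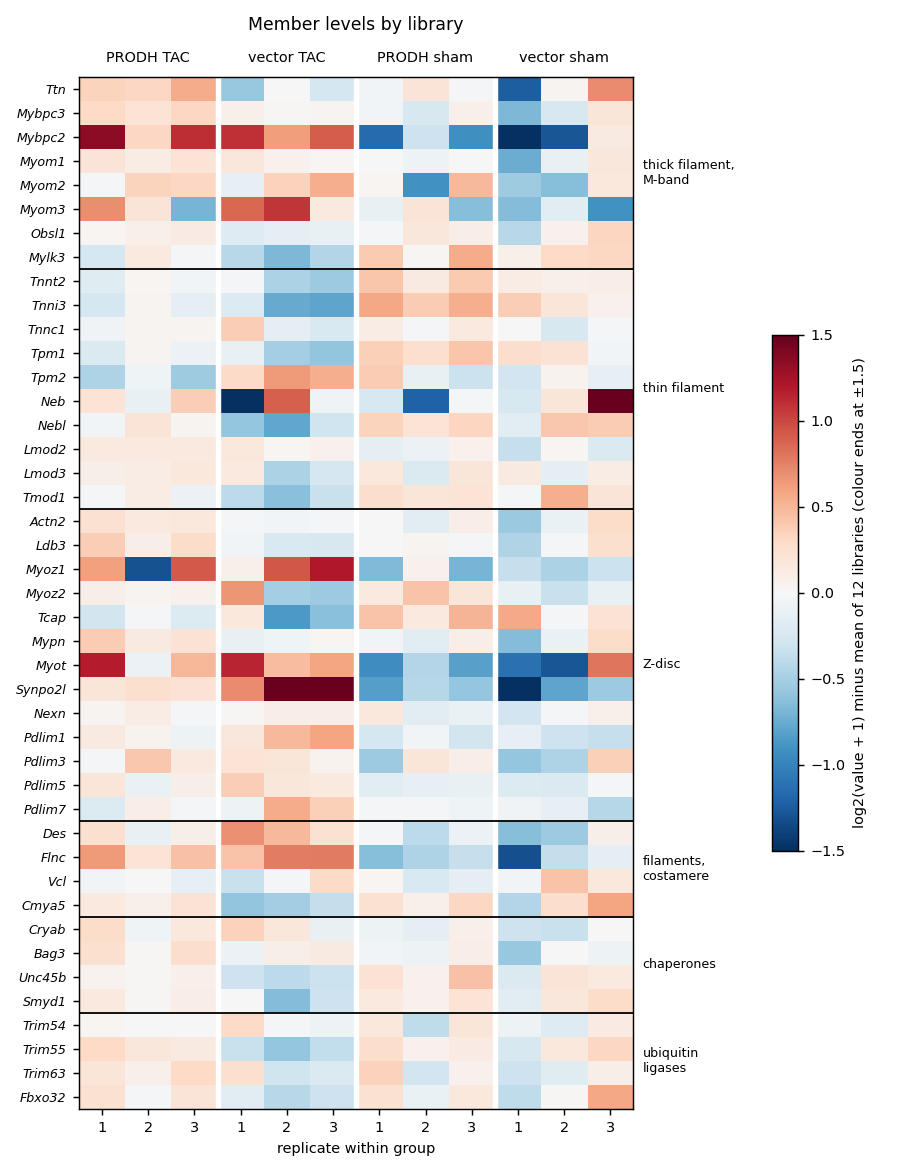
Heat map of the 43 members (lines, grouped by structure) in each of the 12 libraries (columns, by group and replicate); colour gives log2(normalized reads + 1) minus the gene's mean over the 12 libraries. Synpo2l is darkest red in vector TAC replicates 2 and 3, and vector sham replicate 1 is blue for most thick filament and Z-disc genes.

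Libraries of one group differed from each other for these genes. The median range of a member within its group was 0.24 on the log2 scale (1.18-fold) in PRODH TAC, 0.46 (1.37-fold) in vector TAC, 0.28 (1.21-fold) in PRODH sham and 0.57 (1.48-fold) in vector sham libraries. Part of the wide range among vector sham libraries went with transcript length, although the widest ranges of all were those of Myot (2.08) and Mybpc2 (1.99), which are not among the longest. Ttn, the longest, read 10165, 24567 and 39149 normalized reads in vector sham replicates 1, 2 and 3. Across the 43 members, the log2 difference between vector sham replicates 1 and 3 had a Pearson r of -0.638 and a Spearman rho of -0.621 with log2 transcript length; the genes share these 2 libraries and are not independent. The 6 members of at least 6000 bases had a median difference of -1.11, and the 12 under 2000 bases one of -0.01. The same relation ran through 9582 genes with a mean above 100 (r = -0.415, rho = -0.438). Long genes stood 0.11 to 0.15 above short ones (log2, relative to the mean of all libraries) in PRODH TAC libraries, at -0.61, 0.35 and 0.44 in vector TAC replicates 1, 2 and 3, at -0.22 to -0.18 in PRODH sham, and at -0.35, 0.31 and 0.13 in vector sham replicates 1, 2 and 3. With this trend removed, an alternative chosen after seeing the data, 14 members passed in vector TAC against vector sham hearts, 5 in PRODH TAC against vector TAC hearts, 0 in PRODH sham against vector sham hearts, 0 in PRODH TAC against PRODH sham hearts and 1 for the difference between the TAC responses. Among all 21141 genes of that alternative, 2303, 1372, 0, 33 and 55 passed, in the same order.

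**Figure D2:**
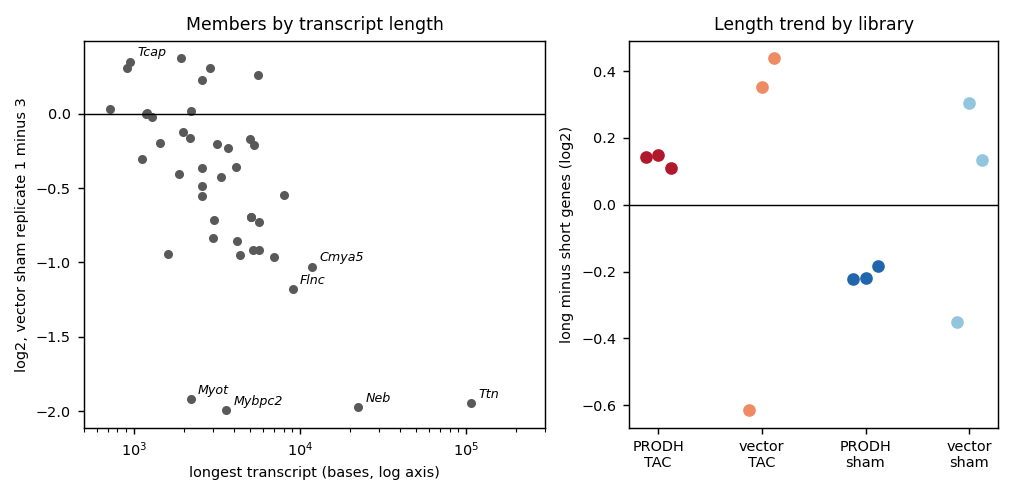
Left, each point is one of the 43 members: longest transcript in bases (log axis) against its log2 level in vector sham replicate 1 minus replicate 3; the long genes Ttn, Neb, Flnc and Cmya5 lie far below 0. Right, median log2 level of genes of at least 6000 bases minus that of genes under 2000 bases in each library by group; vector TAC and vector sham libraries spread from -0.61 to 0.44, PRODH libraries from -0.22 to 0.15.

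The first aim of the study was the effect of pressure overload in hearts with the empty vector. In vector TAC hearts, 4 members rose (Synpo2l, Mybpc2, Flnc and Pdlim1), 4 fell (Nebl, Mylk3, Tmod1 and Trim55) and 35 did not pass limma's test at an adjusted p of 0.05, against vector sham hearts. That is 18.6% of the members, against 7.77% of the 21173 genes tested (3.72% rose, 4.05% fell) and 15% of the 4215 genes with a mean of at least 500. By structure, 2 of 13 Z-disc genes and 1 of 4 filament and costamere genes rose and none of these fell, 2 of 10 thin filament genes fell and none rose, 1 of 8 thick filament genes rose and 1 fell, 1 of 4 ligases fell, and none of the 4 chaperones passed. Median log2 differences were 0.37 for the Z-disc, 0.31 for filaments and costamere, 0.30 for the thick filament, -0.06 for chaperones, -0.16 for ligases and -0.50 for the thin filament, beside 0.10 for all members, 0.02 for all genes tested and -0.05 for genes with a mean of at least 500. The median of all members moved with single libraries: it was 0.03 without vector TAC replicate 1, and leaving out a vector sham library gave 0.05 (replicate 1), 0.03 (replicate 2) or 0.23 (replicate 3).

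Synpo2l, which encodes an actin-associated Z-disc protein of heart and skeletal muscle (CHAP), had the largest difference of any member. It read 4371, 9307 and 7630 normalized reads in vector TAC libraries, against 942, 1546 and 1823 in vector sham libraries. Every vector TAC library lay above every vector sham library, and vector TAC replicate 1 was the lowest of its group. The log2 difference was 2.29 ± 0.25 (SE; a 4.94-fold ratio of means; limma adjusted p = 8.47e-05), and it passed in all 24 alternatives. Pdlim1, a LIM-domain adaptor that binds alpha-actinin, read 1369, 1697 and 1832 in vector TAC libraries and 1120, 982 and 957 in vector sham libraries. The groups did not overlap, and the log2 difference was 0.67 ± 0.13 (limma adjusted p = 0.00491).

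Promoters of Synpo2l are shown because it had the smallest p-value of the members. RefSeq (GRCm38.p6) places 2 starts on the reverse strand, and the 250 bases before each are given 5′ to 3′ on the gene's strand. Capitals mark a match to the MEF2 site, which myocyte enhancer factor 2 proteins bind; matches to MCAT, GATA and CArG box motifs, also searched on both strands, would be marked the same way.
Synpo2l, chr14:20668355-20668604: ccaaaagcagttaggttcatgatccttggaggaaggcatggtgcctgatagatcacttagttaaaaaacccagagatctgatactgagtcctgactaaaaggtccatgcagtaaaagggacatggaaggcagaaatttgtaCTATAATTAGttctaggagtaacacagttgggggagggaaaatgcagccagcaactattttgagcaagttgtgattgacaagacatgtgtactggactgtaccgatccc
Synpo2l, chr14:20664575-20664824: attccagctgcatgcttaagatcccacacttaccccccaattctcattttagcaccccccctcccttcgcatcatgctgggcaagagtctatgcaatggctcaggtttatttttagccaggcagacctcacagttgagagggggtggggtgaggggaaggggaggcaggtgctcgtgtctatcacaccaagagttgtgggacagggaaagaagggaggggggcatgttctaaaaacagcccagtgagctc
A MEF2 match stood before 1 Synpo2l start, and none of these 4 motifs before the other. MEF2 matches stood before 4 of 42 starts of the 33 members with a promoter sequence (9.52%; Mybpc3, Myoz2, Synpo2l and Ttn), against 0.508% of 32851 starts of all genes; these matches are a description of letters, not of binding.

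None of the other 11 Z-disc genes passed. Myot (myotilin, which cross-links actin and binds alpha-actinin) read 2187, 1366 and 1499 in vector TAC libraries, against 457, 408 and 1729 in vector sham libraries. Vector sham replicate 3 lay inside the vector TAC range. The log2 difference was 1.26 ± 0.43 (limma adjusted p = 0.0921), and without that library it was 1.93 (adjusted p = 0.00152). Myot passed in no other of the 12 fits that left out a library (limma adjusted p up to 0.332). Pdlim7 (enigma, another LIM adaptor) read 657, 1020 and 886 in vector TAC and 665, 637 and 514 in vector sham libraries, which overlapped. Its log2 difference was 0.48 ± 0.16 (limma adjusted p = 0.0776) and 0.66 (adjusted p = 0.00172) without vector TAC replicate 1. No other of the 12 fits that left out a library passed (adjusted p up to 0.32). Of 12 other alternatives Pdlim7 passed in 2, DESeq2 (adjusted p = 0.0321) among them. Of the remaining 9, Tcap (-0.69) and Ldb3 (cypher, a PDZ-LIM protein, -0.09) had log2 differences below 0. Myoz1, at 1.1 to 11.0 normalized reads in all libraries, was too low to describe further.

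In the thick filament and M-band, Mybpc2, the fast skeletal form of myosin-binding protein C, read 745, 540 and 658 in vector TAC libraries, against 95.6, 143 and 384 in vector sham libraries. All vector TAC values were higher, and vector sham replicate 3 was the highest of its group. The log2 difference was 1.88 ± 0.39 (limma adjusted p = 0.00741). The cardiac form, Mybpc3, stood far above it in level and did not pass, at 45946, 44102 and 44605 in vector TAC and 27220, 36624 and 49193 in vector sham libraries (0.29, adjusted p = 0.619). Mylk3, the cardiac kinase that phosphorylates the regulatory myosin light chain, read 5057, 4217 and 4971 in vector TAC libraries, against 7131, 8289 and 8358 in vector sham libraries. The groups did not overlap; the log2 difference was -0.74 ± 0.17 (adjusted p = 0.0139), and the call was lost without vector sham replicate 2 (-0.71, adjusted p = 0.0611), vector sham replicate 3 (-0.70, 0.0534) or vector TAC replicate 2 (-0.66, 0.0766). Myom3, an M-band protein best known from skeletal muscle, read 63.6, 73.6 and 38.4 in vector TAC and 21.6, 30.8 and 17.9 in vector sham libraries, without overlap (1.27 ± 0.39, adjusted p = 0.059). It passed in 2 of 12 fits that left out a library (limma adjusted p up to 0.232). Of 12 other alternatives it passed in 5, edgeR (adjusted p = 0.0389) and DESeq2 (0.0154) among them, with limma adjusted p up to 0.136. The other 4 genes of this structure did not pass, Ttn with a log2 difference of -0.12 among them.

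Thin filament genes that passed were those of length and capping proteins. Nebl (nebulette, the cardiac relative of nebulin) read 1786, 1548 and 2162 in vector TAC libraries, against 2370, 3535 and 3458 in vector sham libraries. All vector TAC values were lower; the log2 difference was -0.76 ± 0.16 (limma adjusted p = 0.00917), and the call was lost without vector sham replicate 2 (-0.66, adjusted p = 0.0545) or vector TAC replicate 2 (-0.64, 0.0562). The gene also makes LIM-nebulette, a shorter and more widely expressed form, which a count per gene does not separate. Tmod1 (tropomodulin-1, the cap of the pointed end of actin) read 1741, 1479 and 1814 in vector TAC and 2262, 3348 and 2609 in vector sham libraries, again without overlap (-0.69 ± 0.14, adjusted p = 0.00723). Tpm2 (beta-tropomyosin, a form of skeletal and fetal cardiac muscle that smooth muscle also makes) read 523, 667 and 628 in vector TAC and 351, 444 and 393 in vector sham libraries. These did not overlap, and at a log2 difference of 0.61 ± 0.18 the limma adjusted p was 0.0523. Without vector TAC replicate 1 the adjusted p was 0.0119 (0.71). Tpm2 passed in 3 of 12 fits that left out a library (limma adjusted p up to 0.192). Of 12 other alternatives it passed in 6, edgeR (adjusted p = 0.0413) and DESeq2 (0.0223) among them, with limma adjusted p up to 0.107.

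The most abundant thin filament genes did not pass. Tnni3 read 41438, 28227 and 27591 in vector TAC libraries, against 61511, 54127 and 49654 in vector sham libraries. All vector TAC values were lower, replicate 1 being the highest of its group. The log2 difference was -0.79 ± 0.26 (limma adjusted p = 0.0915) and -0.98 without that library (adjusted p = 0.0029). Tnni3 passed in no other of the 12 fits that left out a library (limma adjusted p up to 0.273). Of 12 other alternatives it passed in 7, edgeR (adjusted p = 0.0161) and DESeq2 (0.000148) among them, with limma adjusted p up to 0.352. Tpm1 read 93508, 70580 and 66748 in vector TAC and 120993, 117476 and 97570 in vector sham libraries (-0.55, adjusted p = 0.402). Tnnt2 read 72374, 53200 and 50455 in vector TAC and 79537, 77633 and 79198 in vector sham libraries (-0.44, adjusted p = 0.464). For both, every vector TAC value was below every vector sham value.

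Promoters of Nebl and Tmod1, the thin filament genes called lower in vector TAC hearts, are shown next, as RefSeq GRCm38.p6 gives them: 250 bases before the start, 5′ to 3′ on the gene's strand. For Nebl the start is 1 of 4 in the table, on the reverse strand, and Tmod1 lies on the forward strand. Capitals mark MCAT matches in both, and in Nebl also a GATA match read on the other strand (TTATCT).
Nebl, chr2:17670166-17670415: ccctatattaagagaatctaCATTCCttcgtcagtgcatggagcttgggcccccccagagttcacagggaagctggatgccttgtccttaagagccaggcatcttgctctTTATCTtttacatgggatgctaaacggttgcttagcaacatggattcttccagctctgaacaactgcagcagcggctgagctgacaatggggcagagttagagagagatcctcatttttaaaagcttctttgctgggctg
Tmod1, chr4:46038972-46039221: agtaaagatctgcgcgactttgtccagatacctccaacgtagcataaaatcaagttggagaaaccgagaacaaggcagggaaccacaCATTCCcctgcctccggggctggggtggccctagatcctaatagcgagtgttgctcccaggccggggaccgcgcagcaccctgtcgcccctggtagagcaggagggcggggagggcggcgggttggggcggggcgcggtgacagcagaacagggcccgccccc
MCAT (CATTCC), the motif of TEAD factors, stood before 13 of 42 member starts (31%), against 12.6% of the 32851 starts of all genes. The GATA motif (AGATAA) stood before 6 (14.3%, against 9.99%). A CArG box, the site of serum response factor, stood before 5 (11.9%, against 1.47%; Ldb3, whose 2 windows overlap, Myom1, Nebl and Vcl). An E-box (CANNTG) stood before 28 (66.7%, against 66.2%). The Nebl starts not shown had no MCAT match. MCAT matches were not particular to genes that fell. They also stood before Mybpc2 and a start of Flnc, which rose, and before members that did not pass, such as Tnnc1, Trim54 and Trim63. The sequences were chosen after the matches were seen, and no expression difference was tested against a motif.

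Among filament and costamere genes, Flnc (filamin C, which links the Z-disc and the membrane to actin) read 7149, 9026 and 9128 in vector TAC libraries, against 2128, 4133 and 4823 in vector sham libraries. All vector TAC values were higher, at a log2 difference of 1.26 ± 0.24 (limma adjusted p = 0.0041). Des (desmin) read 51654, 44947 and 37653 in vector TAC and 20745, 22066 and 34112 in vector sham libraries, which did not overlap either (0.83 ± 0.26, limma adjusted p = 0.0628). Without vector sham replicate 3 the adjusted p was 0.0285 (1.05), and without vector TAC replicate 1 it was 0.0371 (0.72). Des passed in these 2 of 12 fits that left out a library (limma adjusted p up to 0.209). Of 12 other alternatives it passed in 7, edgeR (adjusted p = 0.0215) and DESeq2 (0.0011) among them, with limma adjusted p up to 0.314. Cmya5 (myospryn, a desmin-binding protein at the costamere) read 3825, 3990 and 4471 in vector TAC and 4255, 6894 and 8691 in vector sham libraries. Vector sham replicate 1 overlapped with vector TAC. The log2 difference was -0.63 ± 0.20 (limma adjusted p = 0.0757) and -0.92 (adjusted p = 0.00224) without that library. Cmya5 passed in no other of the 12 fits that left out a library (limma adjusted p up to 0.296). Of 12 other alternatives it passed in 4, edgeR (adjusted p = 0.0413) and DESeq2 (0.00871) among them, with limma adjusted p up to 0.326. Vcl (vinculin), the costamere's link to actin, did not pass.

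Trim55 (MuRF2), a muscle RING-finger ligase at the sarcomere, read 667, 560 and 649 in vector TAC libraries, against 713, 941 and 1046 in vector sham libraries. The groups did not overlap but nearly touched, and the log2 difference was -0.51 ± 0.14 (limma adjusted p = 0.0359). This was the least stable of the 8 calls: it was kept in 4 of 12 fits that left out a library, and was lost without vector sham replicate 2 (-0.47, adjusted p = 0.132) or 3 (-0.39, 0.161), vector TAC replicate 2 (-0.43, 0.16) or 3 (-0.54, 0.071), PRODH sham replicate 3 (-0.51, 0.0547) or PRODH TAC replicate 1 (0.0527), 2 (0.0541) or 3 (0.055). Trim63 and Fbxo32, the ligases MuRF1 and atrogin-1 best known from muscle wasting, did not pass, nor did the chaperones Bag3, Cryab, Unc45b and Smyd1.

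**Figure D3:**
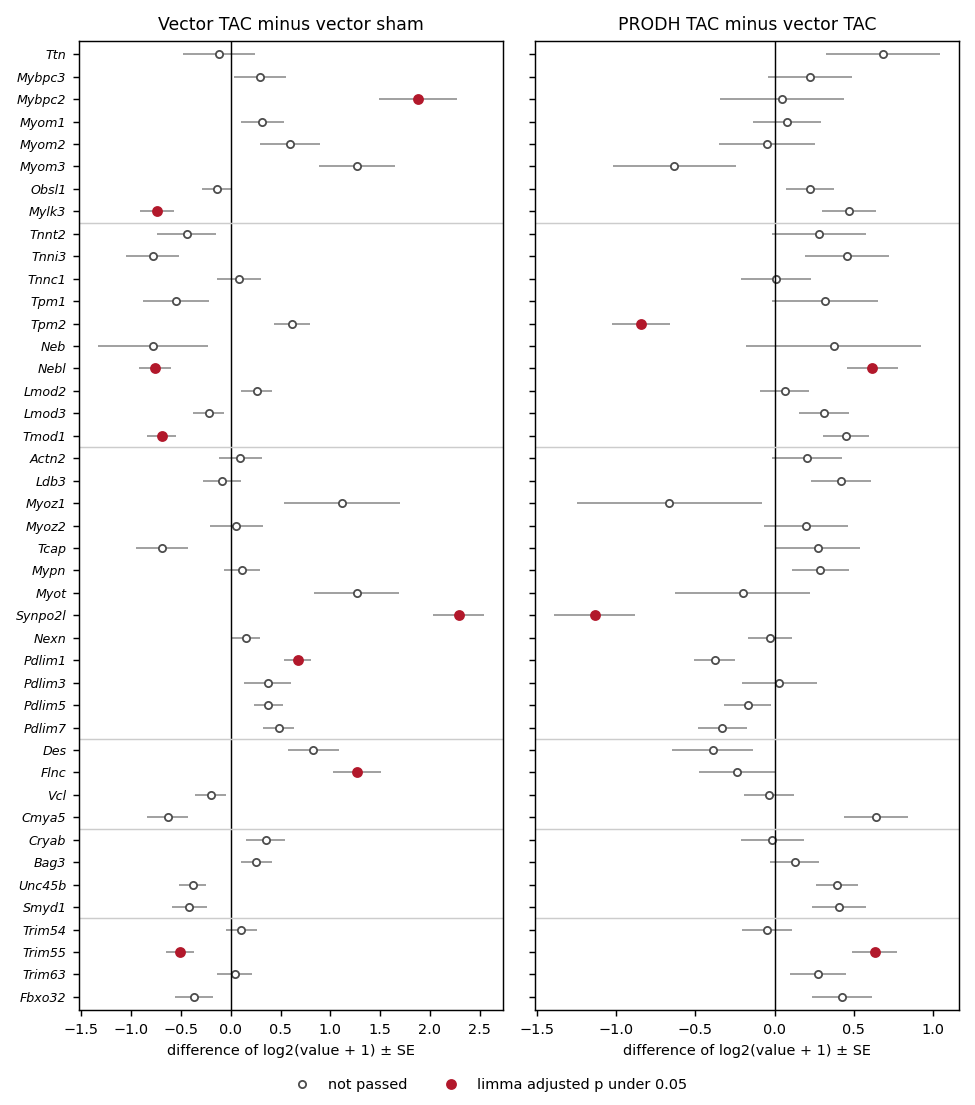
Log2 difference with its SE (horizontal axis) for each of the 43 members in vector TAC minus vector sham (left) and PRODH TAC minus vector TAC (right), with filled points for a limma adjusted p under 0.05. Synpo2l lies at 2.29 on the left and at -1.13 on the right; the horizontal scales of the panels differ and both use the vector TAC libraries.

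Groups did not overlap for 10 members with all vector TAC values higher (23.3%) and for 8 with all lower (18.6%), against 10.1% and 10% of all genes tested and 9.58% and 17% of those with a mean of at least 500. With 3 libraries a group, an exact permutation test of one gene cannot go below p = 0.1. Without the 2 libraries that stood apart, 17 members passed (8 rose, 9 fell), beside 3602 of 20468 genes tested. Wherever these 2 libraries are left out, the choice rests on their values in these same data. With the length trend removed, 14 did (6 rose, 8 fell), beside 2303 of 21141 genes. In a fit of the vector TAC and vector sham libraries alone, 1 member, Synpo2l, passed, beside 320 of 21173 genes. Fibroblast markers moved alongside: their sum over 8 genes was 38901 to 97704 in vector TAC libraries and 19781 to 20412 in vector sham libraries, 6 of 8 rose and none fell. Of 9 cardiac myocyte markers, which include Tnni3, 2 fell (Pln and Ryr2) and none rose, and both calls were lost without vector TAC replicate 2 (adjusted p = 0.095 and 0.165); they passed in 9 and 3 of 12 fits that left out a library. Smooth muscle and pericyte sums over 7 genes were 11421 to 20312 in vector TAC and 14137 to 17970 in vector sham libraries, and skeletal fibre sums over 10 genes were 506 to 1181 and 466 to 809, with Myh2 at 0 in all vector TAC libraries and none of the 9 tested genes called. Atrial myocyte sums over 8 genes were 6287 to 23375 in vector TAC and 913 to 1291 in vector sham libraries. Most of that was Nppa (atrial natriuretic peptide), which rose with Dkk3, while Stard10 fell; the atrial genes Sln, Myl7 and Bmp10 read 0 to 6.69 there. Among the other markers, 2 of 7 tested mesothelial genes (Krt8 and Krt18), 1 of 6 leukocyte genes (Ptprc) and 1 of 7 smooth muscle genes (Tagln) rose. In the 12 fits that left out a library, Tagln passed in 3, Ptprc in 7, Stard10 in 9 and Krt8 in 11, and Nppa, Dkk3 and Krt18 in all. Their part in the members' differences was not tested.

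The second aim was the effect of PRODH under pressure overload. In PRODH TAC hearts, 2 members rose (Nebl and Trim55), 2 fell (Synpo2l and Tpm2) and 39 did not pass limma's test, against vector TAC hearts. That is 9.3% of the members, against 3.92% of all genes tested (2.12% rose, 1.8% fell) and 7.97% of those with a mean of at least 500. Of the thin filament genes 1 rose and 1 fell, 1 Z-disc gene fell, 1 ligase rose, and no gene of the thick filament, of the filament and costamere group or of the chaperones passed. Median log2 differences were 0.35 for ligases, 0.31 for the thin filament, 0.26 for chaperones, 0.15 for the thick filament, -0.03 for the Z-disc and -0.13 for filaments and costamere, beside 0.20 for all members, -0.01 for all genes tested and 0.06 for genes with a mean of at least 500. The median of all members was 0.07 without vector TAC replicate 2, 0.11 with edgeR and 0.10 with DESeq2.

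Synpo2l read 3029, 3138 and 3089 in PRODH TAC libraries, against the 4371, 9307 and 7630 of vector TAC libraries. The PRODH TAC values lay within a narrow band below all vector TAC values. The log2 difference was -1.13 ± 0.25 (limma adjusted p = 0.0219), and the call was lost without vector TAC replicate 2 (-0.90, adjusted p = 0.12) or 3 (-1.05, 0.0771), or PRODH TAC replicate 1 (-1.12, 0.0802), 2 (-1.15, 0.0788) or 3 (-1.13, 0.0901). Tpm2 read 312, 411 and 295 in PRODH TAC libraries and 523, 667 and 628 in vector TAC libraries, again without overlap. Its log2 difference was -0.84 ± 0.18 (adjusted p = 0.0178), and the call was lost without vector TAC replicate 2 (-0.77, adjusted p = 0.0945) or 3 (-0.81, 0.0604), or PRODH TAC replicate 1 (-0.79, 0.0805) or 3 (-0.75, 0.105).

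Trim55 read 1033, 947 and 922 in PRODH TAC libraries, against 667, 560 and 649 in vector TAC libraries. The groups lay well apart, at a log2 difference of 0.63 ± 0.14 (limma adjusted p = 0.0209); the call was lost without vector TAC replicate 2 (0.55, adjusted p = 0.113) or PRODH TAC replicate 1 (0.58, 0.0943), 2 (0.65, 0.0737) or 3 (0.66, 0.0712). Nebl read 2597, 3042 and 2730 in PRODH TAC libraries and 1786, 1548 and 2162 in vector TAC libraries, without overlap. Its log2 difference was 0.62 ± 0.16 with an adjusted p of 0.0479, just under the threshold, and it passed in 3 of 12 fits that left out a library. The call was lost without vector TAC replicate 2 (0.50, adjusted p = 0.218), PRODH TAC replicate 1 (0.67, 0.102), 2 (0.55, 0.18) or 3 (0.63, 0.148), PRODH sham replicate 1 (0.0684), 2 (0.0604) or 3 (0.0722), or vector sham replicate 2 (0.0534) or 3 (0.0512). It was also lost under TMM scaling, scaling by total reads, a pseudocount of 0.1 and no filter on low values, in each of which 1 member rose and 2 fell.

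**Figure D4:**
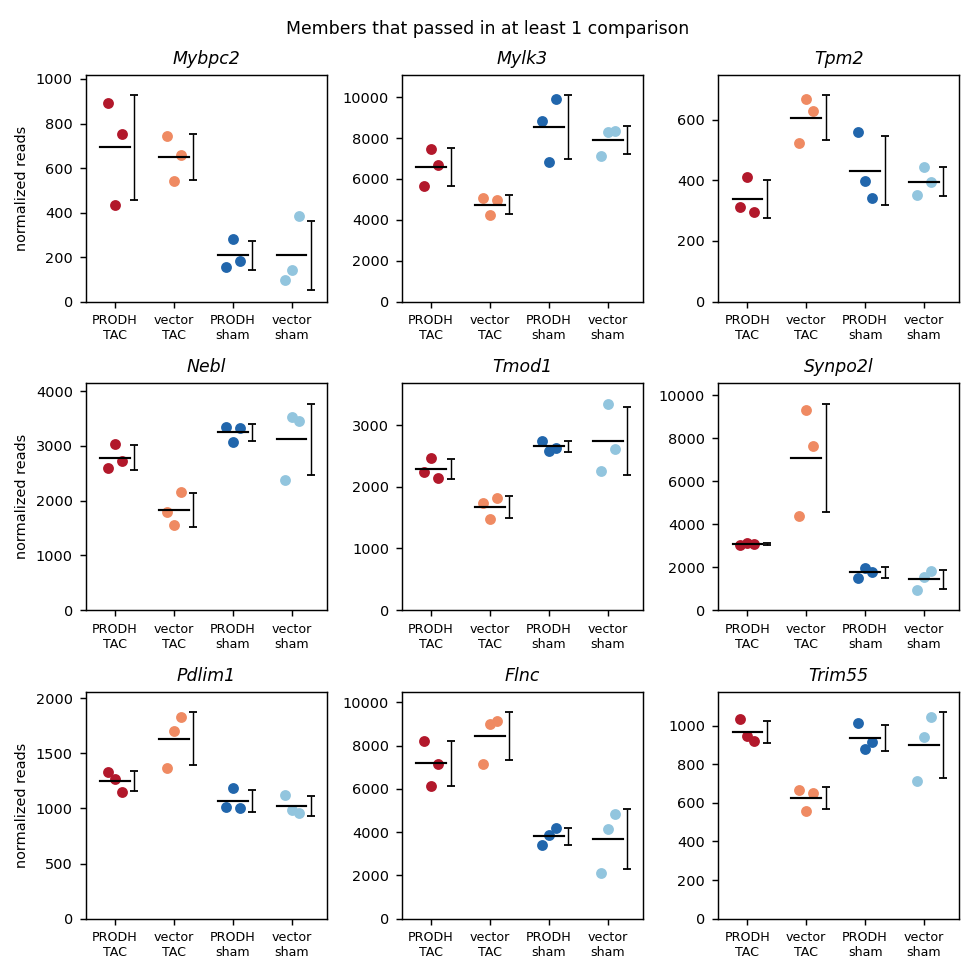
Normalized reads (vertical axis, from 0) of the 9 members that passed in at least 1 comparison, in each library (points) of the 4 groups, with the group mean (line) and SD (bar beside the points, n = 3). Synpo2l in PRODH TAC libraries lies between 3029 and 3138, below all vector TAC values and above all sham values.

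Several members came near the threshold. Tmod1 read 2245, 2467 and 2147 in PRODH TAC libraries, all above the 1741, 1479 and 1814 of vector TAC libraries (0.45 ± 0.14, limma adjusted p = 0.101). Without vector TAC replicate 1 the difference was 0.48 (adjusted p = 0.0351). Tmod1 passed in no other of the 12 fits that left out a library (limma adjusted p up to 0.348). Of 12 other alternatives it passed in 3, DESeq2 (adjusted p = 0.0366) among them. Cmya5 read 6362, 6070 and 6668 in PRODH TAC and 3825, 3990 and 4471 in vector TAC libraries (0.64 ± 0.20, limma adjusted p = 0.1). Its adjusted p was 0.0158 without vector sham replicate 1, a library outside this comparison. No other of the 12 fits that left out a library passed (adjusted p up to 0.29). Of 12 other alternatives Cmya5 passed in 1, DESeq2 (adjusted p = 0.0251). Mylk3 read 5634, 7484 and 6671 in PRODH TAC and 5057, 4217 and 4971 in vector TAC libraries (0.47, adjusted p = 0.156). For these 3 genes all PRODH TAC values were the higher. Pdlim1 read 1332, 1265 and 1151 in PRODH TAC libraries, all below the 1369, 1697 and 1832 of vector TAC libraries (-0.38, adjusted p = 0.136).

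Titin and other abundant genes of the filaments did not pass. Ttn read 30213, 29817 and 35287 in PRODH TAC libraries, against 16158, 23827 and 19929 in vector TAC libraries. All PRODH TAC values were higher, yet the log2 difference of 0.68 ± 0.36 did not pass (limma adjusted p = 0.372). Mybpc3 read 53326, 50030 and 53827 in PRODH TAC libraries, likewise above all 3 vector TAC values. Tnni3 read 39605, 49046 and 42974, Tpm1 86578, 103990 and 94830, and Tnnt2 64877, 75420 and 71488 in PRODH TAC libraries; these ranges included vector TAC replicate 1 for Tnni3, Tpm1 and Tnnt2. Members that had passed in vector TAC hearts against vector sham hearts and did not pass here included Mybpc2, at 890, 434 and 754 in PRODH TAC libraries (0.05, adjusted p = 0.975), and Flnc, at 8238, 6124 and 7174 (-0.23, adjusted p = 0.717). Des read 37971, 29820 and 34339 in PRODH TAC libraries (-0.39, adjusted p = 0.503).

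In all, 14 members had every PRODH TAC value above every vector TAC value (32.6%) and 3 had every value below (6.98%), against 10.6% and 10% of all genes tested and 21% and 10.6% of those with a mean of at least 500. Without the 2 libraries that stood apart, 15 members passed (11 rose, 4 fell), beside 2887 of 20468 genes tested. With the length trend removed 5 did (3 rose, 2 fell), Tmod1 being the one added, beside 1372 of 21141 genes. DESeq2 on the recovered reads called 8 members (6 rose, 2 fell), beside 1493 of 24775 genes. In a fit of the PRODH TAC and vector TAC libraries alone no member passed, beside 108 of 21173 genes. Fibroblast marker sums were 21204 to 23005 in PRODH TAC libraries, against 38901 to 97704 in vector TAC libraries, and 5 of 8 fell. Of 9 cardiac myocyte markers, 2 rose (Pln and Ryr2) and none fell, and both calls were lost without PRODH TAC replicate 2 (adjusted p = 0.11 and 0.145); they passed in 4 and 3 of 12 fits that left out a library. Smooth muscle and pericyte sums were 14046 to 15166 in PRODH TAC and 11421 to 20312 in vector TAC libraries. Atrial myocyte sums were 1165 to 2220 in PRODH TAC and 6287 to 23375 in vector TAC libraries; of 7 tested genes, Nppa and Dkk3 fell and Stard10 rose, which passed in 12, 8 and 1 of 12 fits that left out a library. The part of these cell markers in the members' differences was not tested. Both comparisons of the study's aims use the same vector TAC libraries, so the values of those 3 libraries enter both and the comparisons are not independent.

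Without pressure overload, no member passed between PRODH and vector hearts. In PRODH sham against vector sham hearts none passed limma's test, as none of the 21173 genes did (0%); edgeR and DESeq2 on the recovered reads called no member (0 and 6 of all genes), and no member had an unadjusted p under 0.05, against 871 of all genes. The median log2 difference of the members was 0.12, beside 0.01 for all genes tested, with 38 of 43 above 0 against 51% of all genes tested and 57.7% of those with a mean of at least 500. That median was -0.01 when vector sham replicate 1 was left out and 0.23 when replicate 3 was, 0.08 with DESeq2, 0.03 under scaling by total reads and 0.01 under quantile scaling. Synpo2l read 1500, 1985 and 1786 in PRODH sham libraries, against 942, 1546 and 1823 in vector sham libraries. Tnni3 read 71165, 62220 and 69390 in PRODH sham libraries, above the 61511, 54127 and 49654 of vector sham libraries. With Tnnt2 and Myoz2 it was among the 3 members (6.98%) without overlap, all 3 higher in PRODH sham hearts, against 6.33% of all genes tested and 10.7% of those with a mean of at least 500; none was lower without overlap, against 4.89% and 5.39%.

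Pressure overload in PRODH hearts was measured against PRODH sham hearts. No member passed limma's test, where 0.0236% of all genes did. That count of 5 genes was 298 in the fit of these 2 groups alone, 296 without vector TAC replicate 1 and 124 with DESeq2. At the level of single members, 5 of 43 had an unadjusted p under 0.05 by limma, against 1816 of 21173 genes tested. The edgeR test called none, and DESeq2 called 2, Flnc and Tnni3. Mybpc2 read 890, 434 and 754 in PRODH TAC libraries, against 156, 283 and 184 in PRODH sham libraries, a log2 difference of 1.72 ± 0.39 without overlap (limma adjusted p = 0.171). The adjusted p was 0.0259 without the 2 libraries that stood apart. It was 0.0321 without vector sham replicate 3, a library outside this comparison, where the difference stayed at 1.72. Mybpc2 passed in 2 of 12 fits that left out a library (limma adjusted p up to 0.82). Flnc read 8238, 6124 and 7174 in PRODH TAC and 3409, 3848 and 4177 in PRODH sham libraries, also without overlap (0.91 ± 0.24, limma adjusted p = 0.271). Its adjusted p was 0.0458 without vector TAC replicate 1, also outside this comparison, where the difference stayed at 0.91. No other of the 12 fits that left out a library passed (adjusted p up to 0.85). In the fit of the PRODH TAC and PRODH sham libraries alone, limma's adjusted p for Flnc was 0.0363. Mybpc2 averaged 693 ± 234 (SD, n = 3) in PRODH TAC and 648 ± 103 (SD, n = 3) in vector TAC libraries.

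Synpo2l averaged 3085 ± 54.9 normalized reads in PRODH TAC libraries, 7103 ± 2510 in vector TAC, 1757 ± 244 in PRODH sham and 1437 ± 450.5 in vector sham libraries (SD, n = 3 each). All PRODH TAC values were above all PRODH sham values (0.82 ± 0.25, limma adjusted p = 0.352), and its adjusted p was 0.0323 without the 2 libraries that stood apart. In this comparison Synpo2l passed in 1 of 12 fits that left out a library (limma adjusted p up to 0.852). It also passed in the fit of the PRODH TAC and PRODH sham libraries alone (limma adjusted p = 0.0342). Myot read 2251, 931 and 1405 in PRODH TAC libraries, against 521, 735 and 567 in PRODH sham libraries (1.25, adjusted p = 0.42). Tnni3, at 39605, 49046 and 42974 in PRODH TAC and 71165, 62220 and 69390 in PRODH sham libraries, was lower in each (-0.63, adjusted p = 0.556). There were 12 members that had all PRODH TAC values above all PRODH sham values (27.9%) and 7 had all below (16.3%), against 10.4% and 11.4% of all genes tested and 18.3% and 25.5% of those with a mean of at least 500.

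Whether the response to TAC differed between PRODH and vector hearts was tested directly as an interaction. No member passed limma's test, against 0.104% of all genes. That count of 22 genes was 412 without vector TAC replicate 1, 274 without both libraries that stood apart, 201 with DESeq2, and 0 without vector TAC replicate 2, PRODH TAC replicate 3, PRODH sham replicate 2 or vector sham replicate 2. Among the members, 7 of 43 had an unadjusted p under 0.05 by limma, against 1821 of 21173 genes tested. The edgeR test called no member and DESeq2 called 1. Synpo2l had the smallest p of the members: its TAC response was lower in PRODH hearts by 1.47 ± 0.36 on the log2 scale (a difference of -1.47, unadjusted p = 0.000961, adjusted p = 0.179). It passed in 5 of 23 alternatives: in DESeq2 (-1.49, adjusted p = 0.0102), without vector TAC replicate 1 (-1.78, adjusted p = 0.00151), without both libraries that stood apart (-1.69, adjusted p = 0.00482), with the replicate block (adjusted p = 0.0494) and with the length trend removed (-1.54, adjusted p = 0.0484). In the other 18 it did not pass, at adjusted p-values up to 0.425. Of the 12 fits that left out a library, 1 passed. Tpm2 followed at -0.95 ± 0.26 (limma adjusted p = 0.22), then Trim55 at 0.56 (adjusted p = 0.402) and Nebl at 0.54 (adjusted p = 0.536). Tpm2 passed in 1 of 23 alternatives, without vector TAC replicate 1 (-1.05, adjusted p = 0.0347), and its adjusted p reached 0.492 in the others.

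The members that passed nowhere included much of the core of the lattice. Actn2, the sarcomeric alpha-actinin on which the Z-disc is built, had a log2 difference of 0.21 in PRODH TAC against vector TAC hearts and 0.10 in vector TAC against vector sham hearts. Pdlim3 and Pdlim5, LIM adaptors of alpha-actinin, stood at 0.03 and -0.17 in PRODH TAC against vector TAC hearts and at 0.37 and 0.38 in vector TAC against vector sham hearts. Nexn (nexilin, an actin-binding protein) and Mypn (myopalladin, which binds alpha-actinin and nebulin-family proteins) lay between -0.03 and 0.29 in both comparisons. None of these had an adjusted p under 0.05 by limma in any of the 5 comparisons.

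In the thick and thin filaments, Myom1 and Myom2 (myomesins, which cross-link myosin at the M-band) stood at 0.08 and -0.05 in PRODH TAC against vector TAC hearts and at 0.32 and 0.60 in vector TAC against vector sham hearts, and Obsl1 (obscurin-like 1) at 0.22 and -0.14. The leiomodins, which nucleate actin and lengthen thin filaments against the capping by Tmod1, did not pass: Lmod2 stood at 0.06 and 0.26, and Lmod3 at 0.31 and -0.22, in the same order of comparisons. Tnnc1 lay at 0.01 and 0.09. Neb, at 17.8 to 177 normalized reads, had the widest errors of the thin filament genes.

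No chaperone passed. Unc45b, the myosin chaperone, and Smyd1, a muscle methyltransferase of myosin assembly, stood at 0.39 and 0.41 in PRODH TAC against vector TAC hearts and at -0.38 and -0.42 in vector TAC against vector sham hearts. All PRODH TAC values were above all vector TAC values for both. Bag3, a co-chaperone that clears damaged filamin, and Cryab stood at 0.13 and -0.02 in PRODH TAC against vector TAC hearts and at 0.26 and 0.35 in vector TAC against vector sham hearts. Among the ligases, Fbxo32 had 0.43 and -0.37 in these comparisons, without overlap in the first, Trim63 had 0.27 and 0.04, and Trim54 (MuRF3) had -0.05 and 0.11.

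The partners of these structures outside the set were followed in 6 lists. Of 10 myosin and actin chains, 2 rose in vector TAC hearts and none fell, against vector sham hearts: Acta1 (skeletal alpha-actin) by 4.34 ± 0.64 and Myh7 (beta-myosin heavy chain) by 3.54 ± 0.47 on the log2 scale (limma adjusted p = 0.000644 and 0.000282). In PRODH TAC against vector TAC hearts 1 fell, Myh7 (-2.53 ± 0.47, adjusted p = 0.0074). Of 20 tested skeletal or fetal paralogs of the members, 2 rose in vector TAC hearts (Pdlim2, 1.36, and the non-muscle alpha-actinin Actn1, 0.99) and 2 fell (Tnnt1, the slow skeletal troponin T, -1.11, and Pdlim4, -0.82). In PRODH TAC hearts none rose and 2 fell against vector TAC hearts, Pdlim2 (-1.12) and Actn1 (-0.88).

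At the membrane, 1 of 12 genes of the dystrophin complex, Sgca (alpha-sarcoglycan), fell in vector TAC hearts against vector sham hearts (-0.46 ± 0.13, limma adjusted p = 0.0432) and rose in PRODH TAC hearts against vector TAC hearts (0.51 ± 0.13, adjusted p = 0.0448). Of 19 integrin and talin genes of the costamere, Itgb1bp2 (melusin, an integrin-binding muscle protein) fell in vector TAC hearts (-0.64 ± 0.16, adjusted p = 0.0201), and none passed in PRODH TAC hearts. Of 19 muscle transcription factors and their regulators, 4 fell in vector TAC hearts and none rose, Tbx5 (-1.40), Foxo3 (-0.74) and Mef2a (-0.50) with the smallest p-values. In PRODH TAC hearts against vector TAC hearts 3 rose and none fell: Tbx5 (0.82), Myocd (myocardin, the cofactor of serum response factor, 0.82) and Hdac9 (0.67). Of 11 partners of the BAG3 and UNC45B chaperone routes, Hspb1 (HSP27) rose in vector TAC hearts (0.65 ± 0.18, adjusted p = 0.0391), and none passed in PRODH TAC hearts. In vector TAC against vector sham hearts, the calls of Acta1, Myh7, Actn1, Pdlim2 and Tbx5 held with any library left out. The other 8 calls of these lists in that comparison were lost without vector TAC replicate 2, at adjusted p-values of 0.0785 (Mef2a) to 0.189 (Sgca); each was also lost without other libraries, and passed in 1 (Hdac5) to 9 (Foxo3) of 12 fits that left out a library. In PRODH TAC against vector TAC hearts, that of Tbx5 held with any library left out, and the other 6 were lost without PRODH TAC replicate 2, at 0.0518 (Myh7) to 0.173 (Sgca). Of those 6, Myh7 passed in 11 of the 12 such fits and the others in 4 (Sgca) to 8 (Pdlim2). Shares called in these lists ran from 5.26% to 21.1% in vector TAC hearts and from 0% to 15.8% in PRODH TAC hearts, beside 7.77% and 3.92% of all genes tested.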

How the data were processed

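RNA-seq libraries of 12 heart samples (4 groups of 3) were made from TRIzol-extracted total RNA with a SMARTER mRNA-Seq kit, per the labels' protocols. The sources used here name no aligner, counter, strand setting, genome build or annotation. The authors deposited 1 table of normalized signal, gene counts divided by a size factor for each library; dividing by the smallest step gave whole reads for 100% of values in each library (tolerance 0.01). Its 1 column of no sample, a mean over libraries, was not used. Since the table holds no raw counts, log2(value + 1) was tested with limma 3.58.1 (R 4.3.3; trended prior, all 12 libraries in 1 fit, genes of at least 1 in at least 3 libraries, Benjamini-Hochberg over 21173 genes, threshold 0.05), as laid down for such a table; edgeR 4.0.16 and DESeq2 1.42.0 on the recovered reads were alternatives. The limma fit was tested on simulated data for vector TAC against vector sham, with changes placed in the vector TAC group. The other fits and comparisons were not. Fold changes on the log2(value + 1) scale understate those of low genes. Standard errors share 1 spread across groups.

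The members and all lists were chosen with earlier results of these data known. Members that passed in a comparison, had an unadjusted p under 0.01, or were among the 5 with the highest mean are described by library, the others by counts, ranges or a value; up to 3 genes per list, those with the smallest p-values among the genes that passed, were named. Same-numbered libraries were not found to be pairs. Transcript lengths and antisense overlaps came from GENCODE, promoters from RefSeq. Exons of 10 members, Mybpc2 and Tmod1 among those called, overlap an antisense gene, so without a stated strand setting their reads cannot be told apart from that gene's. Replicate libraries differed beyond sampling noise (chi-square per degree of freedom 4.37 to 87.2). Alternatives covered the pseudocount, filter, scaling, libraries in the fit, replicate block, test and each library left out.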

Additional observations from a re-analysis of the deposited data

How the results depend on the processing

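Over 71 single-gene results and 1700 values under alternatives, 1382 kept their direction and side of the threshold, 255 kept direction but no longer passed, 63 came to pass, and 0 reversed. In vector TAC against vector sham hearts, where 8 members passed, the count was 1 with the vector TAC and vector sham libraries alone, 13 with edgeR, 19 with DESeq2, 17 without both vector TAC replicate 1 and PRODH sham replicate 2, 14 with the length trend removed (chosen after seeing the data), and 5 to 14 with each library left out in turn. In PRODH TAC against vector TAC hearts, where 4 passed, it was 0 with those libraries alone, 8 with DESeq2, 15 without both libraries, and 0 to 12 with each library left out; the count of 12 came without the first vector TAC library, and 0 without the second, or without PRODH TAC replicate 1, or without PRODH TAC replicate 3. In PRODH sham against vector sham hearts 0 members passed under every alternative. In PRODH TAC against PRODH sham hearts, where 0 passed, it was 2 with those libraries alone, 2 with DESeq2, 2 without both libraries, and 0 to 3 with each library left out. For the difference between the TAC responses, where 0 passed, it was 1 with DESeq2, 1 without both libraries, 1 with the length trend removed, and 0 to 2 with each library left out. The cause of these changes was not tested. The fit of 2 groups alone rests on fewer libraries. It called fewer members in both comparisons with vector TAC libraries, and more in PRODH TAC against PRODH sham hearts.

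With the replicate block the counts were 11 in vector TAC against vector sham hearts, 4 in PRODH TAC against vector TAC hearts and 1 (Synpo2l) for the difference between the TAC responses. Deviations of same-numbered libraries correlated at -0.049 to 0.14, and 2 or 3 of 6 libraries correlated best with their own number, so the numbers are not shown to pair the libraries.

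Among all genes, the count of 1645 called in vector TAC against vector sham hearts became 320 with those libraries alone, 3602 without both libraries, and 821 to 3455 with each library left out (highest without the first vector TAC library, lowest without the second). That count was 1832 of 14473 genes with edgeR, 2221 of 24775 with DESeq2, 1737 with the replicate block and 2303 with the length trend removed. The count of 831 called in PRODH TAC against vector TAC hearts became 108 with those libraries alone, 1493 with DESeq2, 2887 without both libraries, 1372 with the length trend removed and 247 to 2754 with each library left out. The count of 5 called in PRODH TAC against PRODH sham hearts became 298 with those libraries alone, 124 with DESeq2, 318 without both libraries, 33 with the length trend removed and 0 to 296 with each library left out. The count of 22 called for the difference between the TAC responses became 7 with edgeR, with a pseudocount of 0.1 or with the stricter filter on low values, 201 with DESeq2, 35 with the replicate block, 274 without both libraries, 55 with the length trend removed and 0 to 412 with each library left out. No alternative scaling moved the median of all genes by over 0.1. With 3 libraries a group, the depth limits the low members most (Neb, Myoz1 and Myom3).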

Other observations

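Some genes read higher in vector sham replicate 3 than in the other vector sham libraries; those given here were chosen after their values were seen. Mybpc2 read 384 normalized reads there, against 95.6 and 143 in vector sham replicates 1 and 2. Myot read 1729, against 457 and 408, and Neb 177, against 44.2 and 59.8. Outside the set, Acta1 read 21556, against 3132 and 2719, and Myh7 1725, against 490 and 796. Other genes best known from skeletal or fetal muscle did not share this: Myom3 read 17.9 there, against 21.6 and 30.8, and Tpm2 393, against 351 and 444. The skeletal muscle fibre marker sum was 466 there, against 809 and 501. Neb also ranged widely within vector TAC libraries, at 17.8, 98.1 and 50.7.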
